A study of Mus musculus with 5 samples.

Results

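The 77 genes described here carry the symbols of mitochondrial ribosomal proteins, and the products of all but Mrps36 are parts of the mitochondrial ribosome. They are all rows whose symbol starts with Mrpl or Mrps followed by a number and at most 1 letter from a to c, out of 29495 genes in the count tables. All 77 passed the filter on low counts, as did 15919 genes in all. RNA was taken from mouse glioma cells of genotype p53-/-;NF1-/-;tdTomato+/-, derived from a tumor model in mice of mixed CD-1 and C57BL/6 origin. They shared the culture dish with neurons from the olfactory bulbs of C57BL/6 pups, dissected 2 to 3 days after birth, and were then sorted from the neurons on the red fluorescent protein tdTomato. In 3 libraries (IGF-1 replicates 3, 4 and 5) the co-culture had been kept overnight with 20 ng/mL of IGF-1, insulin-like growth factor 1. In 2 libraries it had received none (control replicates 1 and 2). Both groups carried the same genotype and the same tdTomato allele. In both, the plating medium held insulin and serum and the later media held serum and the B27 supplement, so the controls were not free of growth factors. The labels do not say whether the glioma cells came from 1 tumor or several, nor whether the libraries came from separate cultures. The p-values below therefore measure the spread of these libraries alone, and that spread may be technical.

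Mitochondria keep their own ribosome, which makes the few proteins encoded by mitochondrial DNA, all of them parts of the respiratory chain and ATP synthase. Its RNAs come from the mitochondrial genome, but its proteins are encoded in the nucleus, made on cytosolic ribosomes and imported. Some of these proteins have relatives in bacterial ribosomes and others are specific to mitochondria. IGF-1 acts through a receptor tyrosine kinase whose downstream pathways promote growth and protein synthesis.

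The libraries held 18359421, 19036906 and 20144181 counts with IGF-1 (replicates 3, 4 and 5), against 17365697 and 16944315 counts in the controls (replicates 1 and 2). In the values below, replicate 5 of the IGF-1 group lay away from the other 4 libraries, so the main results are given with and without it. The 8 markers of glioma and oligodendrocyte precursor cells were all expressed, with a summed level of 3988 to 4492 CPM (counts scaled to library size) with IGF-1, highest in replicate 5, against 3789 to 3928 CPM in the controls. In the neuronal list 8 of 13 markers were under 1 CPM, and their summed level was 105 to 115 CPM with IGF-1, against 93.7 CPM in each control. The neuronal sum came mostly from Tubb3, Nefm and Nefl, and the neuronal nuclear protein gene Rbfox3 had at most 1 count in any library. All 7 microglial markers were under 1 CPM, and 4 of 5 endothelial markers were. Their summed levels were 0.979 to 1.32 and 5.63 to 9.21 CPM with IGF-1, against 0.826 to 1.15 and 6.81 to 9.03 CPM in the controls. The part of these cell types in the results was not tested, and in such bulk samples fewer cells of a type and less RNA per cell cannot be told apart. Trp53 was present at 82.2 to 88.8 CPM and Nf1 at 126 to 133 CPM over the 5 libraries, and since both groups share the genotype these totals do not check the labels.

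All 77 genes were expressed in every library, with 121 to 1533 counts per gene and library. Their mean over the 5 libraries ran between 8.20 CPM for Mrpl43 and 78.1 CPM for Mrpl13, with a median of 34.2 CPM. Mrpl13, Mrpl3 and Mrps5, which all have bacterial relatives, were the most abundant by CPM. Mrpl43, Mrps6 and Mrpl41 were the least abundant. Per kilobase of the principal transcript, the mean level ran between 5.56 CPM per kb for Mrps25 and 82.8 CPM per kb for Mrpl42. This was a 14.9-fold range in RNA among genes for 1 complex, and it rests on annotated lengths. Mrps25 had 33.8 CPM, near the median, and an annotated principal transcript of 6073 bases. The gene Nr2c2 covers 69.8% of the exon bases of Mrps25 on the opposite strand. After Mrpl42 came Mrpl20 with 79.3 CPM per kb and Mrpl34 with 76.7 CPM per kb. At the low end Mrpl43 had 5.87 CPM per kb and Mrpl47 had 6.58 CPM per kb. The median level was 24.0 CPM per kb for the 26 genes of the small subunit and 25.3 CPM per kb for the 50 genes of the large subunit, so the subunits stood at like levels. The order of the genes was nearly the same in every library, with Spearman correlations across the 77 genes of 0.976 to 0.991 between pairs of libraries. These are correlations across genes, which share library and transcript length and are not independent replicates.

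The group of genes as a whole took a like share of the RNA in 4 libraries and less in the fifth. Summed over the 77 genes, the level was 3104, 3061 and 2506 CPM with IGF-1 (replicates 3, 4 and 5), against 2992 and 3070.3 CPM in the controls. IGF-1 replicate 3 lay above both controls, replicate 4 lay between them, and replicate 5 lay below all others. The same genes held 0.307%, 0.304% and 0.254% of all counts with IGF-1, against 0.299% and 0.307% in the controls.

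No gene of the 77 passed the test for a change with IGF-1 when all 5 libraries were used. At an adjusted p under 0.05 in the quasi-likelihood test of edgeR, adjusted by Benjamini-Hochberg over all genes tested, 0 members were higher and 0 were lower, beside 0.685% of all genes tested that were higher and 0.339% that were lower. Without adjustment, 2 members were higher at p under 0.05 (Mrps2 and Mrps18b) and 3 were lower (Mrpl23, Mrpl48 and Mrpl14), beside 7.1% and 5.57% of all genes. DESeq2 also called 0 members higher and 0 lower, beside 1.2% and 0.559% of all genes. The log2 change was above 0 for 18 members and below 0 for 59, with a median of -0.07, against -0.01 over all genes tested. All 3 IGF-1 libraries were above both controls for 4 members (Mrpl43, Mrps2, Mrps18b and Mrpl44), beside 16.2% of all genes. They were below both controls for 12 members, beside 16.9% of all genes.

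Without IGF-1 replicate 5 the balance moved slightly to the other side. Then 44 members were above 0 and 33 below, and their median log2 change was 0.03, against -0.01 over all genes. Control 2 minus control 1 had a median of like size, 0.03. Against control 1, IGF-1 replicates 3 and 4 had medians of 0.055 and 0.036, with 26 and 31 members below 0. Against control 2 the medians were 0.0097 and 0.0090, with 36 and 37 members below 0. At the same threshold 3 members rose (Mrps2, Mrps18b and Mrpl12) and 0 fell, which is 3.9% of the members, beside 5.49% of all genes that were higher and 3.65% that were lower. The share of members called was thus not above that of all genes. DESeq2 on the same 4 libraries called 1 member higher, Mrps2, and 0 lower, beside 2.49% and 1.21% of all genes. Without adjustment edgeR gave 7 members higher and 2 lower, beside 11.6% and 9.64% of all genes. Both IGF-1 libraries were above both controls for 22 members and below both for 12, beside 24% and 24.7% of all genes.

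**Figure D1:**
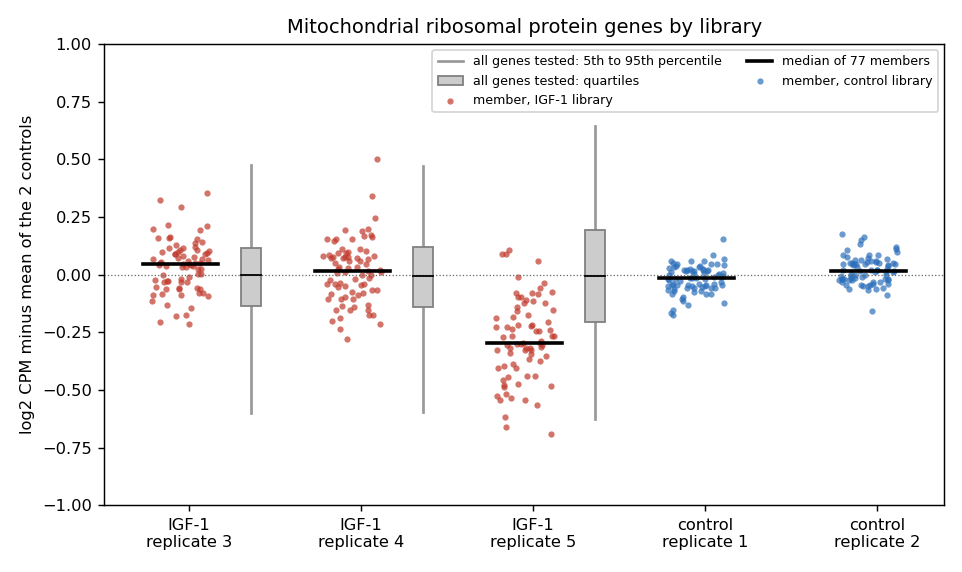
Each point is 1 of the 77 mitochondrial ribosomal protein genes, plotted as its log2 CPM in 1 library minus the mean of the 2 controls. The columns of the 2 controls mirror each other, because each control is set against the mean of both. Grey boxes and lines beside the IGF-1 libraries show the spread of all genes tested. Replicates 3 and 4 scatter around 0 with medians of 0.05 and 0.02, whereas in replicate 5 the median is -0.30 and 73 of 77 genes are below 0.

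Seen library by library, the difference from the mean of the controls had a median of 0.05 in IGF-1 replicate 3, with 49 members above 0 and 28 below. In replicate 4 it was 0.02, with 42 above and 35 below. In replicate 5 it was -0.30, with 4 above and 73 below. The members of replicate 5 ran between -0.69 for Mrpl52 and 0.11 for Mrpl44, so all but a handful were on the low side. Over all genes tested the medians were near 0 in the 3 libraries, and 50.4%, 50.8% and 51% of genes were below 0. Of the 77 members 68, or 88.3%, had their lowest level of the 5 libraries in replicate 5, against 29.3% of all genes tested. Set directly against its fellow IGF-1 libraries, replicate 5 was lower than replicate 3 for 77 of 77 members, with a median log2 difference of -0.31, and lower than replicate 4 for 75, with a median of -0.28. Replicate 4 minus replicate 3 had a median of -0.02 (SD over members 0.10), and control 2 minus control 1 had a median of 0.03 (SD 0.12). The gap between replicate 5 and the others of its group was thus wider than any gap between libraries of 1 group that did not involve it.

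Mrps2, a small subunit protein of a bacterial family, had 51.8, 51.4 and 42.3 CPM with IGF-1 (replicates 3, 4 and 5), against 41.1 and 40.1 CPM in the controls (replicates 1 and 2). All 3 IGF-1 libraries were above both controls, with replicate 5 only just so. The log2 change was 0.26 (SE 0.10, adjusted p = 0.325 in edgeR) with all libraries and 0.35 (SE 0.07, adjusted p = 3.1e-04) without replicate 5, where the adjusted p in DESeq2 was 0.00942. Mrps18b is 1 of 3 genes for relatives of the bacterial protein S18, and its product sits in the small subunit. It had 32.4, 30.7 and 27.6 CPM with IGF-1, against 26.0 and 25.7 CPM in the controls, again with no overlap. Its log2 change was 0.22 (SE 0.10, adjusted p = 0.382 in edgeR) with all libraries and 0.29 (SE 0.09, adjusted p = 0.024) without replicate 5, where DESeq2 gave an adjusted p of 0.173. An antisense gene, Gm16279, covers 30.5% of the exon bases of Mrps18b on the opposite strand but had only 2.59 to 3.18 CPM in the 5 libraries.

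Mrpl12 encodes the flexible stalk protein of the large subunit, which recruits translation factors. It had 81.3, 79.9 and 59.9 CPM with IGF-1, against 72.4 and 69.3 CPM in the controls. Replicates 3 and 4 were above both controls and replicate 5 was below both. With all libraries its log2 change was 0.06 (SE 0.12, adjusted p = 0.878 in edgeR), and without replicate 5 it was 0.19 (SE 0.06, adjusted p = 0.0268), while DESeq2 gave 0.169 without replicate 5. Its partners at the stalk did not pass the test in either case. Mrpl10, which anchors the stalk, had 59.1, 58.9 and 55.5 CPM with IGF-1, against 61.1 and 60.0 CPM in the controls. Mrpl11, at the stalk base, had 23.7, 23.9 and 16.4 CPM with IGF-1, against 21.8 and 24.1 CPM in the controls. Without replicate 5 their log2 changes were -0.04 (SE 0.06, adjusted p = 0.82) and 0.06 (SE 0.10, adjusted p = 0.82) in edgeR.

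The largest log2 change upward was that of Mrpl43, a large subunit protein specific to mitochondria and the least abundant member by CPM. It had 8.81, 10.2 and 7.63 CPM with IGF-1, against 6.98 and 7.38 CPM in the controls, so the groups did not overlap although replicate 5 lay close to them. The log2 change was 0.31 (SE 0.16, adjusted p = 0.468 in edgeR), and 0.41 (SE 0.15, adjusted p = 0.0804) without replicate 5. The gene Twnk, which encodes the mitochondrial DNA helicase, covers 33.4% of its exon bases on the opposite strand. Twnk had 35.9, 38.1 and 40.0 CPM with IGF-1, against 39.0 and 35.6 CPM in the controls, and the sources used here do not say whether the counting used strand. Mrpl44, whose product has a ribonuclease III-like domain, had 21.9, 21.0 and 21.1 CPM with IGF-1, against 19.4 and 19.8 CPM in the controls, and had the highest difference from the controls of all members in replicate 5. Its log2 change was 0.12 (SE 0.10, adjusted p = 0.636 in edgeR), and 0.13 (adjusted p = 0.518) without replicate 5.

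At the other end stood Mrpl27, whose bacterial relative lies near the peptidyl transferase center. It had 25.7, 25.2 and 18.0 CPM with IGF-1, against 28.5 and 28.3 CPM in the controls. All 3 IGF-1 libraries were below both controls, and replicate 5 was far below the other 4. The log2 change was -0.31 (SE 0.14, adjusted p = 0.405 in edgeR), and -0.16 (SE 0.09, adjusted p = 0.306) without replicate 5, which moved it by more than 1.5 times. Mrps33, a small subunit protein specific to mitochondria, had 32.0, 28.9 and 22.1 CPM with IGF-1, against 31.2 and 37.0 CPM in the controls. Its groups overlapped, because control 1 was below IGF-1 replicate 3, and its log2 change was -0.30 (SE 0.14, adjusted p = 0.417 in edgeR), and -0.17 (adjusted p = 0.262) without replicate 5. Mrpl14, from the subunit interface, had 27.7, 25.8 and 23.6 CPM with IGF-1, against 29.8 and 32.8 CPM in the controls. Mrpl48, specific to mitochondria, had 42.2, 41.2 and 34.8 CPM with IGF-1, against 47.3 and 48.3 CPM in the controls. In both genes the 3 IGF-1 libraries were below the 2 controls. The log2 change was -0.29 (SE 0.10, adjusted p = 0.263 in edgeR) for Mrpl14 and -0.28 (SE 0.09, adjusted p = 0.246) for Mrpl48. Without replicate 5 the values were -0.23 (adjusted p = 0.0969) for Mrpl14 and -0.20 (adjusted p = 0.0769) for Mrpl48 in edgeR, so neither passed the threshold. Mrps21, of a bacterial family, had 22.3, 20.5 and 16.2 CPM with IGF-1, against 23.3 and 23.8 CPM in the controls, with a log2 change of -0.26 (SE 0.13, adjusted p = 0.445 in edgeR). Without replicate 5 that of Mrps21 was -0.14 (SE 0.10, adjusted p = 0.441).

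**Figure D2:**
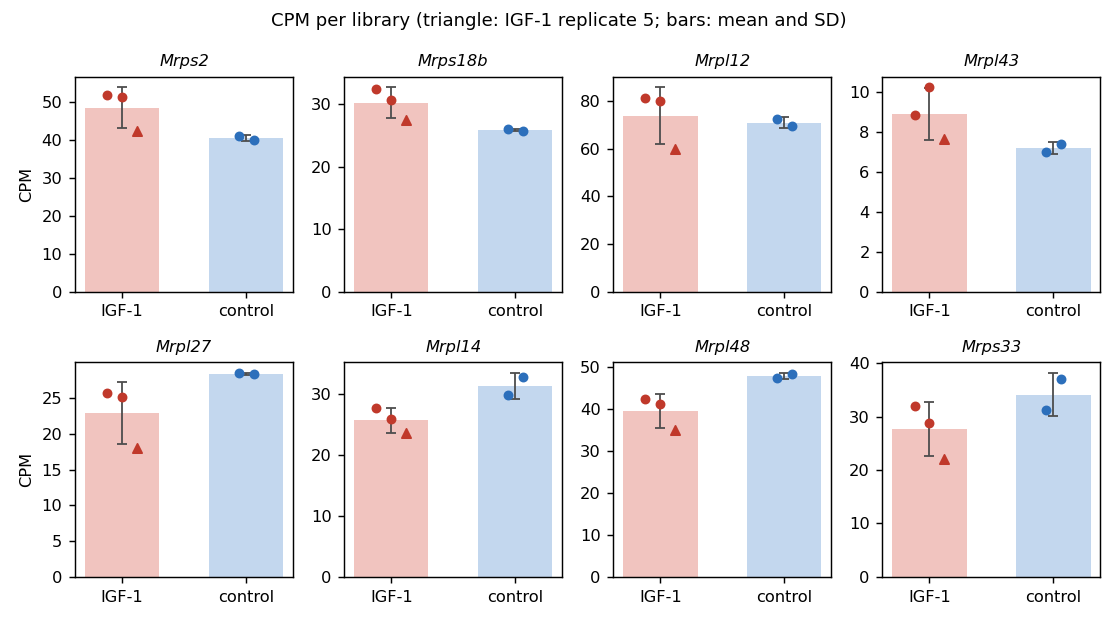
Levels of 8 members in CPM, with a point for each library, a triangle for IGF-1 replicate 5, and bars and whiskers for the mean and SD of the 3 IGF-1 and the 2 control libraries. Mrps2 and Mrps18b are above both controls in all 3 IGF-1 libraries, Mrpl27 is below both in all 3, and Mrpl12 is above in replicates 3 and 4 but below in replicate 5.

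Of the 3 relatives of bacterial S18, Mrps18b lay above both controls in all IGF-1 libraries and Mrps18c below both, while the groups overlapped for Mrps18a. Beside Mrps18b, described above, Mrps18c had 18.1, 17.1 and 12.7 CPM with IGF-1, against 19.4 and 18.4 CPM in the controls, and all 3 IGF-1 libraries were below both controls. Mrps18a, whose product sits in the large subunit despite its name, had 42.6, 42.0 and 36.6 CPM with IGF-1, against 41.0 and 33.0 CPM in the controls, where the controls themselves were far apart. The log2 changes were -0.24 (SE 0.15, adjusted p = 0.53 in edgeR) for Mrps18c and 0.12 (SE 0.11, adjusted p = 0.677) for Mrps18a. Without replicate 5 they were -0.10 (SE 0.11, adjusted p = 0.658) for Mrps18c and 0.19 (SE 0.08, adjusted p = 0.135) for Mrps18a, so the low value of Mrps18c rested in large part on that library. The difference between the 3 genes was not tested, and Gm43511 covers 23.2% of the exon bases of Mrps18c on the same strand.

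Genes for several functional sites of the ribosome had overlapping groups. Mrps12, from the decoding center, had 16.9, 18.5 and 14.3 CPM with IGF-1, against 17.0 and 18.2 CPM in the controls. Mrpl1, of the mobile stalk that handles departing tRNA, had 29.5, 28.4 and 26.2 CPM with IGF-1, against 26.1 and 29.4 CPM in the controls. Mrpl45, which holds the ribosome at the inner membrane near the exit tunnel, had 43.6, 40.0 and 34.5 CPM with IGF-1, against 40.5 and 48.7 CPM in the controls. In these 3 genes replicate 5 was the lowest library or nearly so. Mrpl58, a peptidyl-tRNA hydrolase built into the large subunit, had 40.0, 40.4 and 32.7 CPM with IGF-1, against 37.6 and 40.1 CPM in the controls. Mrps30, a large subunit protein despite its name, had 34.6, 35.5 and 32.3 CPM with IGF-1, against 30.2 and 37.4 CPM in the controls. Mrps36 is counted in neither subunit, because its product is now known as a part of the 2-oxoglutarate dehydrogenase complex. It had 18.1, 15.7 and 12.7 CPM with IGF-1, against 18.4 and 17.2 CPM in the controls. For these 6 genes the log2 change was between -0.20 and 0.02 with all libraries and between -0.09 and 0.06 without replicate 5. The adjusted p in edgeR was at least 0.547 with all libraries and at least 0.542 without replicate 5.

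Of the 3 most and the 3 least abundant members, 4 had their lowest level in replicate 5. Mrpl13 had 80.6, 79.9 and 62.0 CPM with IGF-1, against 83.8 and 84.3 CPM in the controls, and Mrpl3 had 80.8, 81.2 and 63.7 CPM with IGF-1, against 73.2 and 80.2 CPM in the controls. Mrps5 was steadier, with 73.4, 78.7 and 68.0 CPM with IGF-1, against 72.5 and 74.5 CPM in the controls. Mrpl41 had 17.9, 16.1 and 12.2 CPM with IGF-1, against 16.2 and 15.8 CPM in the controls. Replicate 5 was the lowest library for each of these 4 genes. Mrpl43, described above, had its lowest level in control 1. Mrps6 had 15.5, 14.2 and 15.3 CPM with IGF-1, against 16.3 and 16.1 CPM in the controls, so its lowest library was replicate 4. None of the 6 passed the test with all libraries or without replicate 5.

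The low values of replicate 5 were spread over both subunits and over both kinds of protein. Mrps18a and Mrps18b, named above as relatives of a bacterial protein, were counted here as specific to mitochondria. The median difference from the controls in IGF-1 replicates 3, 4 and 5 was 0.0006, -0.07 and -0.31 for the 16 small subunit genes with bacterial relatives. For the 10 small subunit genes specific to mitochondria it was 0.06, 0.03 and -0.21. For the 30 large subunit genes with bacterial relatives it was 0.05, 0.05 and -0.30, and for the 20 specific to mitochondria it was 0.04, 0.0044 and -0.28. In each class replicate 5 was the lowest of the 3, and the classes differed little among themselves. Over the fit with all libraries, 5 small subunit genes were above 0 and 21 below, and 13 large subunit genes were above and 37 below. Without replicate 5 the small subunit had 13 above and 13 below, and the large subunit 31 above and 19 below.

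The differences from the controls in replicate 5 were weakly correlated with transcript length. The median principal transcript was 1316 bases for the members and 2806 bases for all genes tested, and in replicate 5 short transcripts were low among other genes too. The members were therefore set beside other genes of like length with a mean of 5 to 100 CPM. In replicate 5 the median difference from the controls for genes under 1 kb was -0.38 for 24 members, against -0.27 for 484 other genes. Between 1 and 2 kb it was -0.22 for 28 members, against -0.11 for 1590 other genes. Between 2 and 4 kb it was -0.29 for 16 members, against -0.0039 for 3377 other genes. Over 4 kb it was -0.29 for 9 members, against 0.08 for 2617 other genes. The median of the members in replicate 5 was thus below 0 in each length class, without a steady course from short to long. In replicate 3 the medians of the members in the 4 classes ran between -0.01 and 0.06, and in replicate 4 between -0.05 and 0.07. Across the 77 members the difference in replicate 5 had a Pearson correlation with log2 length of 0.25 and a Spearman correlation of 0.30, against 0.17 and 0.23 across 15528 genes, values that describe genes of 1 library. With an offset for the trend on length in each library, the median log2 change of the members was -0.03 with all libraries, with 26 above 0, 51 below and 0 called in either direction, beside 1.02% of all genes called higher and 0.578% lower. Without replicate 5 the same offset gave the same count of 3 higher and 0 lower, beside 5.25% and 3.51% of all genes. The part of transcript length, or of RNA quality, in the low values of replicate 5 was not tested.

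**Figure D3:**
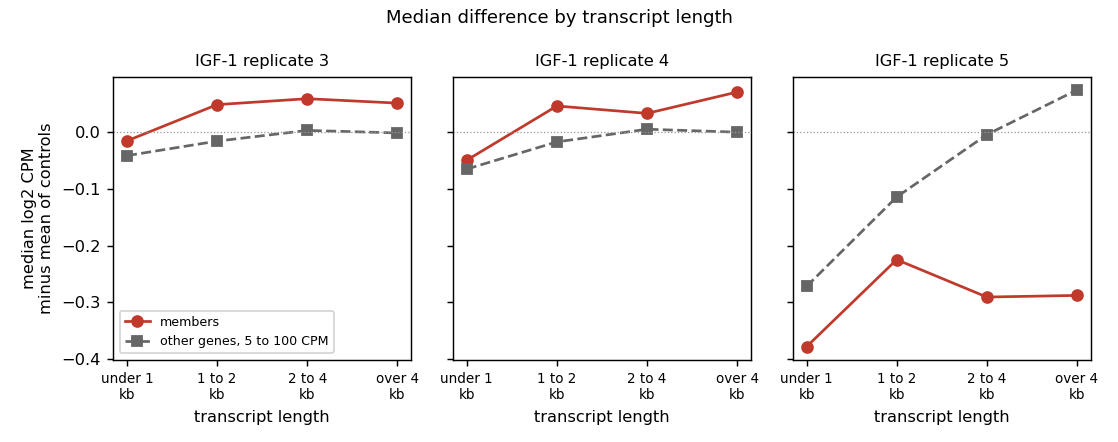
Median log2 CPM minus the mean of the 2 controls in each IGF-1 library, by length of the principal transcript, for the members and for other genes with a mean of 5 to 100 CPM. In replicate 5 other genes run between -0.27 under 1 kb and 0.08 over 4 kb, while the members are between -0.38 and -0.22 in every length class.

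The cytosolic ribosomal protein genes, the family most like this one in role, were also low in replicate 5, with a lower median. They encode the ribosome that translates nuclear messages, and 85 of 87 passed the filter. Their summed share of counts was 3.92%, 3.86% and 3.05% with IGF-1, against 4.03% and 4.14% in the controls. The median difference from the controls in IGF-1 replicates 3, 4 and 5 was 0.05, 0.02 and -0.30 for the mitochondrial family, against -0.04, -0.07 and -0.47 for the cytosolic one. With all libraries 0 cytosolic genes were called in either direction, beside 0.685% of all genes higher and 0.339% lower. Of the 85, 2 were above 0 and 83 below, and the median log2 change was -0.19. All 3 IGF-1 libraries were below both controls for 50 cytosolic genes and above both for 1. In the mitochondrial family these counts were 12 and 4, and over all genes the shares were 16.9% and 16.2%. Without replicate 5, 8 cytosolic genes were above 0 and 77 below, against 44 and 33 in the mitochondrial family. Without replicate 5 edgeR called 3 mitochondrial genes higher and 0 lower, against 0 higher and 7 lower in the cytosolic family, whose median was -0.06, beside 5.49% of all genes higher and 3.65% lower. With DESeq2 on the same 4 libraries these counts were 1 higher and 0 lower in the mitochondrial family, against 0 higher and 1 lower in the cytosolic family. The difference between the families was not tested. The median transcript was 1316 bases in the mitochondrial family, against 871 bases in the cytosolic one.

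In the next lists, of other parts of the mitochondrial translation system, edgeR called no gene with all libraries or without replicate 5. Over all genes tested 0.685% were called higher and 0.339% lower with all libraries, and 5.49% and 3.65% without replicate 5. In lists this short, 0 calls lie near the shares with all libraries. Of 5 mitoribosomal proteins under other symbols 0 were called, and their median log2 change was -0.14 with all libraries and -0.04 without replicate 5. In replicate 5 alone their median difference from the controls was -0.32. Among them Dap3, a small subunit protein that binds GTP, had 87.4, 77.7 and 73.2 CPM with IGF-1, against 85.6 and 88.5 CPM in the controls. Ptcd3, a small subunit protein of the pentatricopeptide repeat family, had 160, 153 and 148 CPM with IGF-1, against 143 and 157 CPM in the controls. Of 28 assembly factors 0 were called (median -0.05, and -0.0026 without replicate 5). In their most abundant member, the RNA helicase gene Dhx30, the 3 IGF-1 libraries lay narrowly above the controls. Its log2 change was 0.10 (SE 0.06, adjusted p = 0.53 in edgeR), and 0.09 without replicate 5. The next most abundant, Trub2, had 51.8, 50.2 and 57.7 CPM with IGF-1, against 58.5 and 54.5 CPM in the controls. The log2 change of Trub2 was -0.08 (adjusted p = 0.71 in edgeR), and -0.15 (adjusted p = 0.188) without replicate 5. Of 15 mitochondrial translation factors and regulators 0 were called (median -0.08, and -0.09 without replicate 5). The most abundant of these was Lrpprc, which stabilizes mitochondrial messages, with 163, 170 and 132 CPM with IGF-1, against 151 and 161 CPM in the controls. The next, Guf1, had 90.3, 92.1 and 88.2 CPM with IGF-1, against 97.0 and 104 CPM in the controls. The log2 change of Guf1 was -0.16 (SE 0.06, adjusted p = 0.349 in edgeR), and -0.14 (adjusted p = 0.0802) without replicate 5.

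Of 17 mitochondrial aminoacyl-tRNA synthetases edgeR called 0 with all libraries and 2 higher without replicate 5, Mars2 and Yars2, beside 5.49% of all genes. With the length offset and all libraries edgeR called 1 of the 17 higher, beside 1.02% of all genes. Mars2, the methionyl enzyme, had 49.6, 42.6 and 50.5 CPM with IGF-1, against 36.0 and 35.1 CPM in the controls, so all IGF-1 libraries including replicate 5 were above both controls. Its log2 change was 0.42 (SE 0.09, adjusted p = 0.0724 in edgeR) with all libraries and 0.37 (adjusted p = 3.4e-04) without replicate 5, and DESeq2 gave an adjusted p of 0.0211 with all libraries and 0.016 without replicate 5. Yars2, the tyrosyl enzyme, had 22.0, 20.0 and 17.4 CPM with IGF-1, against 16.9 and 16.6 CPM in the controls. Its log2 change was 0.24 (SE 0.12, adjusted p = 0.455 in edgeR) with all libraries and 0.32 (adjusted p = 0.0362) without replicate 5, where DESeq2 gave 0.239 and so did not call it.

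Among the related lists, edgeR without the length offset called 1 gene with all libraries, a regulator of mitochondrial biogenesis. Over all genes tested 0.685% were called higher in that fit. Pprc1 encodes a coactivator related to PGC-1 that is induced by serum in cultured cells and binds the transcription factor NRF1. It had 106, 95.9 and 108 CPM with IGF-1, against 64.1 and 57.5 CPM in the controls, and replicate 5 was as high as its fellows. The log2 change was 0.77 (SE 0.08, adjusted p = 0.00426 in edgeR), and 0.73 without replicate 5. The other 12 genes of mitochondrial transcription and biogenesis were not called with all libraries. Without replicate 5 Myc was called too, beside 5.49% of all genes called higher. It had 265, 261 and 265 CPM with IGF-1, against 242 and 228 CPM in the controls. Its log2 change without replicate 5 was 0.16 (adjusted p = 0.00311 in edgeR). The median log2 change of the 13 genes was 0.13 with all libraries and 0.10 without replicate 5.

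The RNAs that the mitochondrial ribosome contains or reads were not called with all libraries, 0 of 15 in either direction. Over all genes tested 0.685% were called higher and 0.339% lower. Without replicate 5 edgeR called 5 lower (mt-Rnr1, mt-Rnr2, mt-Nd5, mt-Cytb and mt-Nd1) and 0 higher, beside 3.65% of all genes called lower. DESeq2 on the same 4 libraries called only mt-Rnr1 (adjusted p = 0.00123), with an adjusted p of at least 0.537 for the other 4. With the length offset in edgeR, mt-Cytb (adjusted p = 0.136) and mt-Nd1 (adjusted p = 0.281) were not called either. The small ribosomal RNA mt-Rnr1 had 57.0, 53.3 and 89.4 CPM with IGF-1, against 68.9 and 73.5 CPM in the controls. Replicate 5 was the highest of all libraries for this RNA, whereas it was the lowest for 68 of the 77 protein genes. The log2 change of mt-Rnr1 was -0.09 (SE 0.18, adjusted p = 0.861 in edgeR) with all libraries and -0.37 (adjusted p = 9.3e-06) without replicate 5. The large ribosomal RNA mt-Rnr2 had 560, 472 and 599 CPM with IGF-1, against 577 and 564 CPM in the controls. The libraries were made from polyadenylated RNA, so these values show the polyadenylated part of the ribosomal RNAs.

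**Figure D4:**
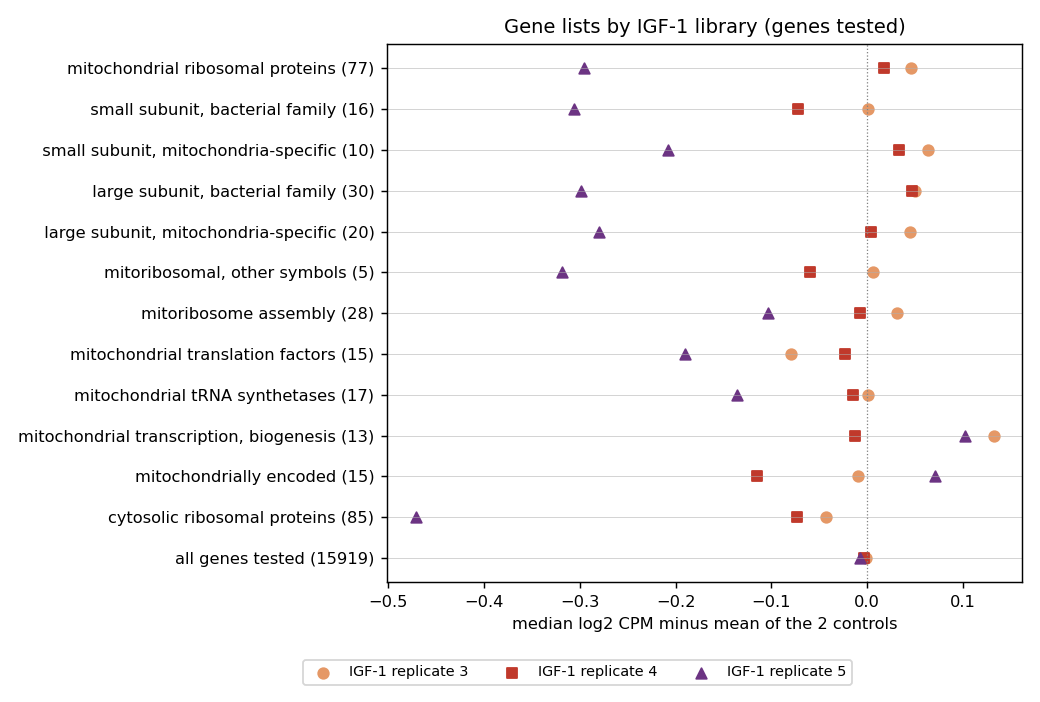
Median log2 CPM minus the mean of the 2 controls in each IGF-1 library, for the members, their classes and related gene lists, with the number of genes tested in brackets. In replicate 5 the members stand at -0.30, the mitoribosomal proteins under other symbols at -0.32 and the cytosolic ribosomal proteins at -0.47, while mitochondrially encoded genes stand at 0.07 in that library and all genes at -0.01.

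Promoter windows were read from RefSeq (build GRCm38.p6, 250 bases before to 50 bases after a gene's start, 300 in all) and matched to 68 of the 77 members by symbol (not Mrpl13, Mrpl15, Mrpl19, Mrpl38, Mrpl4, Mrpl54, Mrps28, Mrps34 and Mrps35). The 4 windows printed are those of the 3 members that rose without replicate 5 and of Mrpl27, the member with the lowest log2 change. They are given on the strand of the gene, with matches to 3 motifs in capitals. The motifs were GCGCA, any base and GCGC for NRF1, CCGGAAG for the ETS family and ATGGCGGC for YY1, each searched on both strands. The window of Mrps2 is chr2:28467816-28468115 on the plus strand and holds no match. That of Mrps18b is chr17:35916391-35916690 on the minus strand, with an ETS match in reverse. That of Mrpl12 is chr11:120484387-120484686 on the plus strand, with an NRF1 match in reverse. That of Mrpl27 is chr11:94653541-94653840 on the plus strand, with an ETS match followed by a YY1 match.
Mrps2: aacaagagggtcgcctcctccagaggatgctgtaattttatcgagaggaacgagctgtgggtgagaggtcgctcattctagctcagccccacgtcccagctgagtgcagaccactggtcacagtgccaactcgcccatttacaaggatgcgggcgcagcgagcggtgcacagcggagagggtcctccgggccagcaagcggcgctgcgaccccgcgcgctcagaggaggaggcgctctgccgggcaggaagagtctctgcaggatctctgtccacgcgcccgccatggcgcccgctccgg
Mrps18b: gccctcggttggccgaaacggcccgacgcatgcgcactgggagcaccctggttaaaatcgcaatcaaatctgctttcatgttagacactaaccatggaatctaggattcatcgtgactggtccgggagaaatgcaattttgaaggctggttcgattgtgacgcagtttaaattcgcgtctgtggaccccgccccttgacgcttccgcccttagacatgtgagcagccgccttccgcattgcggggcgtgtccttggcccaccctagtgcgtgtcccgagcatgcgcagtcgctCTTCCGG
Mrpl12: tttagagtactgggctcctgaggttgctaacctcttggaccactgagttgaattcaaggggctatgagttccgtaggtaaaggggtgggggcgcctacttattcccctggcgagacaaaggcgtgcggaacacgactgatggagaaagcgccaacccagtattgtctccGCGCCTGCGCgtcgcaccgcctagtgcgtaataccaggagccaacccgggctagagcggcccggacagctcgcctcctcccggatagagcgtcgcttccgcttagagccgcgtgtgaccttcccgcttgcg
Mrpl27: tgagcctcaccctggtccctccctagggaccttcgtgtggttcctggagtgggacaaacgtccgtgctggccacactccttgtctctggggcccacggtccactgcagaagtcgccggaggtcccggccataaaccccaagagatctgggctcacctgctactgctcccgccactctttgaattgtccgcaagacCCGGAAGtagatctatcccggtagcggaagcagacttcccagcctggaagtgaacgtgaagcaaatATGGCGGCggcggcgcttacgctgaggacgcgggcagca

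A gene was counted where any of its windows held a match. Among the 68 members with a window, 25 or 36.8% held the ETS letters, against 18.7% of 11054 other tested genes with a window. Of all 27025 genes with a window, tested or not, 9.93% held them. The NRF1 letters were in 13 members or 19.1%, against 10.9% of the other tested genes and 5.19% of all genes with a window. The YY1 letters were in 11 members or 16.2%, against 5.27% of the other tested genes and 2.6% of all genes with a window. At least 1 of the 3 was in 40 members or 58.8%, against 30.7% of the other tested genes. The remaining 2 motifs searched were not more frequent in the members. The E-box CACGTG was in 5 members or 7.35%, against 11.4% of the other tested genes and 8.09% of all genes with a window. The letters CCAAT, bound by NF-Y, were in 26 members or 38.2%, against 43.3% of the other tested genes and 41.1% of all genes with a window. In 0 windows of the members did matches to different motifs overlap. These shares describe letters in windows and were not tested, and a gene without a match may still be bound.

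**Figure D5:**
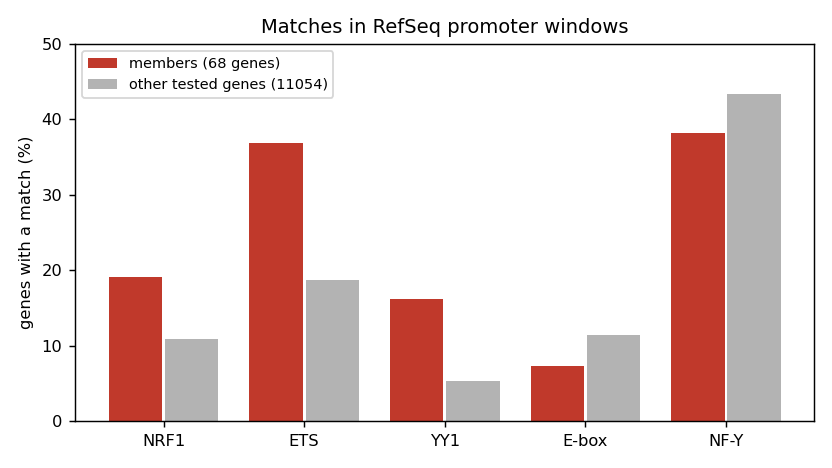
Share of genes whose promoter window of 300 bases holds a match to each motif, in percent, for the 68 members with a window and for 11054 other tested genes. The members have the higher share for ETS (36.8%), NRF1 (19.1%) and YY1 (16.2%) and the lower share for the E-box and NF-Y motifs.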

How the data were processed

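Polyadenylated RNA of sorted glioma cells was sequenced in 5 libraries. The authors deposited raw counts of reads per gene symbol, 1 table per library. The submitters' processing notes name cutadapt 3.4, STAR 2.7.9a, featureCounts 2.0.1, DESeq2 1.28.1 and the build GRCm39. Their settings, the annotation and the use of strand or multiply mapped reads are not given in the sources used here, so reads of overlapping genes and pseudogenes can be shared. By a mouse annotation of another build (GENCODE M21, GRCm38), 32 of the 77 members overlap exons of another gene, 8 of them by at least 20% of their exon bases. The 5 pseudogene entries of the family had at most 19 counts in a library.

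Groups came from the titles and treatment labels. The members and gene lists were chosen with earlier results of these data known. The tests used edgeR 4.0.16 under R 4.3.3: filterByExpr (minimum count 10, minimum total 15), TMM factors, the two-sided quasi-likelihood F-test of 3 IGF-1 against 2 control libraries, and Benjamini-Hochberg adjustment over every gene tested. The threshold was 0.05. The SE is the log2 change divided by the square root of F. CPM are scaled by TMM factors, and differences of single libraries use log2 CPM with a prior count of 2. Lengths of principal transcripts (GENCODE M21) matched 97.5% of tested genes by symbol. Alternatives were RLE factors, total counts, no filter, DESeq2 1.42.0, limma-voom (limma 3.58.1), a length offset (lowess, span 0.3) and each library left out. DESeq2 and the length offset without IGF-1 replicate 5 were chosen after seeing the data. The procedure was tested on simulated data. These held no library standing apart as replicate 5 does, and their planted changes were larger than those of the members, so neither case was covered.

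Genes named with values were the members called without replicate 5, the 5 highest and 5 lowest log2 changes, the 3 most and 3 least abundant members, 12 members of known role, and called or most abundant genes of each list. Mrpl52, Mrpl23, Mrps25, Mrpl42, Mrpl20, Mrpl34, Mrpl47, Myc, mt-Nd1 and the overlapping genes were named after their values were seen.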

Additional observations from a re-analysis of the deposited data

How the results depend on the processing

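Over all genes, the counts called higher and lower were 109 and 54. They were 385 and 221 without a filter on low counts and 191 and 89 with DESeq2, and 92 were lower with the length offset. With 1 library left out they ran between 0 and 855 higher and between 2 and 569 lower. The highest counts came without IGF-1 replicate 5 (387 and 189 there with DESeq2, 818 and 547 with the length offset) and the lowest without control 1 or control 2, where the remaining control is taken to vary as the IGF-1 libraries do. The number of members called higher was 0 under every alternative that kept replicate 5, and 0 to 3 with 1 library left out. No member was called lower under any alternative. The median log2 change of the members was -0.09 to -0.03 under the alternatives that used all libraries. It was -0.13 to -0.05 with 1 library other than replicate 5 left out, and 0.03 without replicate 5 (0.05 with the length offset).

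Of 325 values of 25 named members under alternatives, 285 kept direction and call, 7 newly passed the threshold and 33 changed sign, each at a log2 change of at most 0.13 in size. With all libraries, Mrps5 stood at 2.3e-04 with RLE factors, 0.0011 without a filter and 2.9e-04 with DESeq2, and with the length offset Mrpl41 was 0.025 and Mrpl1 was -0.0011. With 1 library left out, the log2 change ran between -0.066 and 0.10 for Mrpl1, -0.13 and 0.18 for Mrps30, -0.021 and 0.29 for Mrps18a, -0.091 and 0.078 for Mrpl3, -0.056 and 0.050 for Mrps5, -0.094 and 0.052 for Mrpl58, -0.019 and 0.19 for Mrpl12, -0.18 and 0.087 for Mrpl41, -0.19 and 0.055 for Mrpl11, and -0.18 and 0.0059 for Mrps12. With DESeq2 and no replicate 5, Mrpl3 was 0.079, Mrps5 0.051, Mrpl41 0.089, Mrpl11 0.057, Mrps12 0.0071 and Mrpl58 0.054. With the length offset and no replicate 5, Mrpl3 was 0.067, Mrps5 0.038, Mrpl41 0.13, Mrpl11 0.052, Mrps12 0.044 and Mrpl58 0.052. The cause was not tested. No paired analysis was possible because the groups share no replicate number. With 121 or more counts per member and library, each value rests on few libraries rather than on few counts.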
